A study of Danio rerio with 4 samples.

Results

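The miRNAs described here are the miR-99 and miR-100, miR-125 and miR-10 families of the zebrafish ovarian follicle. They were taken by name from a table of 118 mature miRNAs, where 8 rows carried these names with any letter or arm suffix. The 12 let-7 rows of the same table are given beside them, because let-7 genes lie next to genes of these families. The follicles came from wild-type zebrafish (Danio rerio) of strain AB, aged 3 months and given no treatment that the labels record. Primary growth follicles, with a small oocyte under a thin follicle layer, and pre-vitellogenic follicles, the next stage, which precedes yolk uptake, were sorted by size and morphology. There was 1 library of small RNA and 1 of mRNA for either stage, so no difference below has a replicate check and no p-value is given. The sources used here do not say whether a library pools several fish. The sample titles name all 4 libraries PG, and the cell type labels, which separate the stages, were followed.

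A miRNA guides a silencing complex to messenger RNAs that pair with its seed, the bases 2 to 8 from its 5′ end, and so mature miRNAs of one seed are grouped as a family. In vertebrates miR-99 or miR-100, let-7 and miR-125 are often made from neighbouring hairpins, and these clusters are best known from developmental timing, differentiation and growth control. The miR-99 and miR-100 family is known in mammals for acting on mTOR and the IGF1 receptor, miR-125 on Lin28, and miR-10, which is encoded inside hox gene clusters, on hox genes in zebrafish.

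The 8 mature sequences are shown to make plain which of them share a seed, with the table's T for U and the seed in capitals.
miR-99: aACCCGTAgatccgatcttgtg
miR-100-5p: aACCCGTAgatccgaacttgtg
miR-10a-5p: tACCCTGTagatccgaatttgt
miR-10b-5p: tACCCTGTagaaccgaatttgtg
miR-10c-5p: tACCCTGTagatccggatttgt
miR-125a: tCCCTGAGacccttaacctgtg
miR-125b-5p: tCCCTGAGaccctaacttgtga
miR-125c-5p: tCCCTGAGaccctaactcgtga

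The let-7 forms whose hairpins lie beside these miRNAs are shown for the same purpose.
let-7a: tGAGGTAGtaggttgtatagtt
let-7c-5p: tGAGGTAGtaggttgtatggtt
let-7d-5p: tGAGGTAGttggttgtatggtt

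The members fell into 3 seed groups. ACCCGTA was carried by miR-99 and miR-100-5p, ACCCTGT by the 3 miR-10 forms and CCCTGAG by the 3 miR-125 forms. No other row of the 118 carried any of these 3 seeds. Outside the seed the members of a group were close. Counted from 1 at the 5′ end with the first-named base first, miR-100-5p and miR-99 differ by the single substitution A16T, miR-125b-5p and miR-125c-5p by T18C, and miR-10a-5p and miR-10c-5p by A16G. The change from miR-10a-5p to miR-10b-5p is T12A with 1 base more at the 3′ end. The seeds of miR-100-5p and miR-10a-5p differ, but both hold the same run of 11 bases, gtagatccgaa, from position 6 in miR-100-5p and from position 7 in miR-10a-5p. The sources used here do not say how reads that fit 2 such forms were assigned, so the split within each of the 3 pairs that differ by 1 substitution and no length is uncertain. Among the let-7 forms shown, let-7c-5p differs by 1 base from let-7a and from let-7d-5p, so the split of their reads is uncertain too. The same limit holds for let-7 forms not shown. By 1 base let-7f and let-7g differ from let-7a, let-7b from let-7c-5p, and let-7e from let-7f.

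The small RNA values were in RPM, the reads of a miRNA per 1000000 reads of the library total, and the totals came to 13147324 reads for primary growth and 19043107 for pre-vitellogenic follicles. The listed miRNAs together took 0.460% of the first and 3.18% of the second, 6.92 times as much. The lowest value above 0 stood for 6 reads in both libraries, so a value listed at 0 may hide a few reads. Primary growth had 42 rows listed at 0 and the later library 11, and some of them were not low in the other library, such as miR-7a at 34.4 RPM in primary growth only. A listed 0 is therefore reported as such, without a fold difference. In the mRNA libraries, where levels are in FPKM (fragments scaled by transcript length and library size), all 5 oocyte markers were above 0 at both stages. The growth factor genes gdf9 (56.4 and 62.2 FPKM in primary growth and pre-vitellogenic follicles) and bmp15 (117 and 114 FPKM) were near level. The egg coat gene zp3.2 (3478 and 993 FPKM) and the maternal factor gene zar1 (1086 and 357 FPKM) were lower later, as was the sum of the list (4737 and 1526 FPKM). Genes at 1 FPKM or above in either library were called at 2-fold on the log2(FPKM + 1) scale, by which 29.1% of 14476 genes were called higher and 6.52% lower in the later library. By that rule 5 of 7 granulosa and theca markers were called higher, all 5 that reached 1 FPKM. Only 1 of them, inha, reached 1 FPKM in both libraries. The others passed the minimum through the later library alone, which favours a call of higher. The granulosa and theca list summed to 2.59 and 17.9 FPKM, with fshr and nr5a1a listed at 0 in primary growth. Of 5 markers of endothelium and mural cells 4 reached 1 FPKM and 3 were called higher. Here too only 1, acta2, reached 1 FPKM in both libraries. That list summed to 4.81 and 22.9 FPKM, with none at 0. Of 3 erythrocyte markers (summed 65.6 and 60.7 FPKM) 2 reached 1 FPKM, and neither was called. Of 4 leukocyte markers (1.34 and 2.39 FPKM, mpeg1 listed at 0 in primary growth) 1 reached it and was not called. Markers below 1 FPKM could not be called, the erythrocyte gene alas2 at 0.0347 and 0.744 FPKM among them. Among miRNAs known from other cell types, the smooth muscle form miR-143 was at 186 and 2596 RPM, with miR-145-3p listed at 0 and at 49.7 RPM and miR-145-5p listed at 0 and at 8.30 RPM. The endothelial form miR-126a-3p was at 13.8 and 85.9 RPM, while miR-126a-5p and miR-126b-5p, of 1 sequence, were at 4.41 RPM and listed at 0. The leukocyte form miR-142a-3p was at 0.608 and 7.30 RPM, and the erythrocyte form miR-144-5p was listed at 0 and at 1.26 RPM. Of striated muscle forms, miR-1 was at 4.11 and 5.78 RPM and miR-206-3p was listed at 0 and at 1.68 RPM. The early embryo form miR-430a-3p was lower later, at 21.4 and 7.77 RPM. Also sought were miR-451 (erythrocytes), miR-223 (leukocytes) and miR-133a (striated muscle), which were not among the listed miRNAs. The part of these cells in any miRNA value was not tested, and in whole follicles more cells of a type and more RNA per cell cannot be told apart.

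The miR-99 and miR-100 family held most of the reads. Both its miRNAs were more abundant in RPM in pre-vitellogenic follicles, while their part of the listed miRNA reads was smaller there. The major form was miR-100-5p, with 851 RPM (11190 reads) in primary growth and 3210 RPM (61136 reads) in pre-vitellogenic follicles, a ratio of 3.77 (95% interval 3.70 to 3.85, counting error only, as for all intervals here). It was the second most abundant of the listed miRNAs in primary growth, between miR-22a-3p at 865 RPM and miR-20a-5p at 570 RPM, and number 3 in the later library, under miR-22a-3p at 7340 RPM and let-7a at 5939 RPM. Its share of the listed reads went from 18.5% (18.2 to 18.8, Wilson interval) to 10.1% (10.0 to 10.2). The minor form, miR-99, was at 165 RPM (2164 reads) and 1026 RPM (19544 reads), a ratio of 6.24 (5.96 to 6.52). In share it moved less, from 3.58% (3.43 to 3.73) to 3.22% (3.18 to 3.27). The reads of miR-100-5p outnumbered those of miR-99 by 5.17 times (4.94 to 5.41) in primary growth and 3.13 times (3.08 to 3.18) later. Of the family's own reads miR-99 thus made 16.2% and then 24.2%.

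The miR-125 forms were far less abundant and kept their order. miR-125b-5p was at 46.1 RPM (606 reads) in primary growth and 198 RPM (3768 reads) in pre-vitellogenic follicles, a ratio of 4.29 (3.94 to 4.68). miR-125a was at 24.8 RPM (326 reads) and 119 RPM (2268 reads), a ratio of 4.80 (4.27 to 5.41), and the intervals of both ratios overlap. Their shares of listed reads were 1.00% and 0.621% for miR-125b-5p and 0.539% and 0.374% for miR-125a. Reads of miR-125b-5p stood to those of miR-125a as 1.86 to 1 (1.62 to 2.13) in primary growth and 1.66 to 1 (1.58 to 1.75) later, a change of 0.894 (0.774 to 1.03) whose interval includes no change. The third form, miR-125c-5p, stood at a listed 0 in primary growth and reached 48.6 RPM (925 reads) in pre-vitellogenic follicles, where it made 13.3% of the family's reads. It is 1 of 2 forms that differ by a single base, and its more abundant neighbour miR-125b-5p had 606 reads in the library where it was listed at 0.

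The miR-10 forms were the least abundant. miR-10b-5p stood at a listed 0 in primary growth and reached 31.8 RPM (606 reads) in pre-vitellogenic follicles, 77.7% of the family's reads there. miR-10c-5p was listed at 0 and was at 7.98 RPM (152 reads). miR-10a-5p, the only form listed above 0 in both, was at 0.456 RPM (6 reads) and 1.16 RPM (22 reads), a ratio of 2.53 whose interval of 0.995 to 7.63 includes no difference. The 3 forms together made 0.129% (0.120 to 0.138) of the listed reads in the later library.

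In order of level the members ran miR-100-5p, miR-99, miR-125b-5p and miR-125a in both libraries, followed in pre-vitellogenic follicles by miR-125c-5p, miR-10b-5p, miR-10c-5p and miR-10a-5p. Intervals of neighbours in that order did not overlap for members above 0, but how far 2 libraries of one stage would differ is unknown. All 8 members together were at 1087 RPM and 4643 RPM, a ratio of 4.27 (4.20 to 4.35). Their share of listed reads was 23.6% (23.3 to 24.0) in primary growth and 14.6% (14.5 to 14.7) in pre-vitellogenic follicles.

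**Figure D1:**
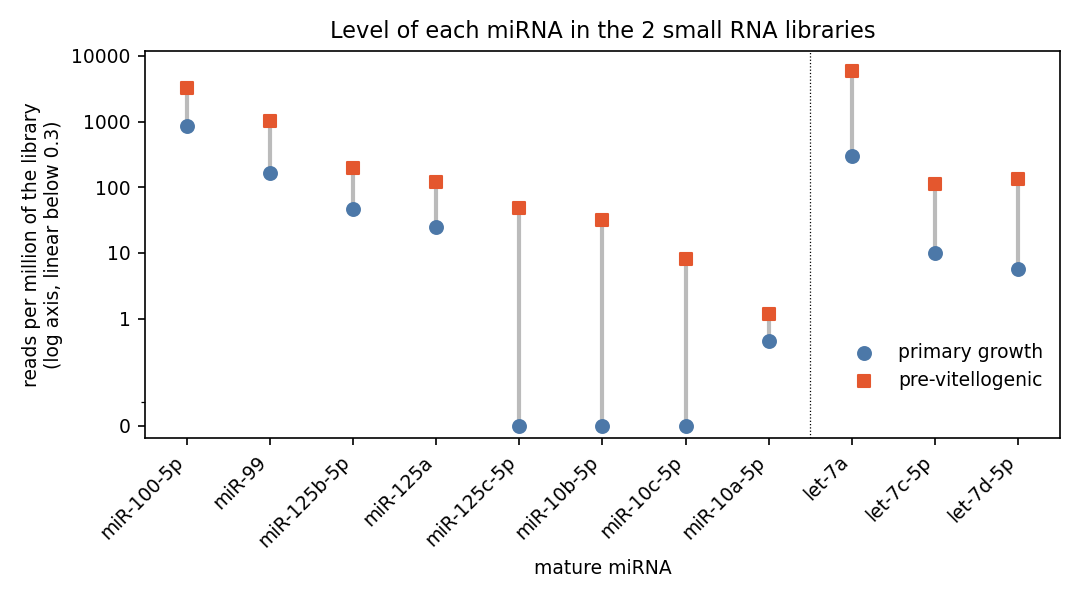
Levels in RPM of the 8 members and of 3 let-7 partners, right of the dotted line, in the primary growth (circles) and pre-vitellogenic (squares) library, on a log axis that is linear below 0.3; each point is 1 library and there are no replicates. All 8 members stand higher in the pre-vitellogenic library, miR-125c-5p, miR-10b-5p and miR-10c-5p from a listed 0, and the line of let-7a is longer than that of miR-100-5p.

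The let-7 rows differed more between the stages. Hairpins were taken as beside each other, in 1 cluster, at gaps of up to 50000 bases or in 1 shared locus. Of the 12 let-7 rows, let-7a, let-7c and let-7d have hairpins beside those of the members, and the others do not. In total they were at 354 RPM and 7264 RPM, a ratio of 20.5 (19.9 to 21.1) against 4.27 for the members, and their share of listed reads went from 7.69% (7.49 to 7.91) to 22.8% (22.7 to 22.9). In primary growth the members thus held more reads than let-7, and in pre-vitellogenic follicles fewer. The form let-7a made 85.1% and 81.8% of the let-7 reads, with 301 RPM and 5939 RPM. let-7e was at 20.7 and 509 RPM, let-7c-5p at 10.0 and 111 RPM, and let-7d-5p at 5.63 and 134 RPM. Of the others, let-7b (2.74 and 120 RPM), let-7g (6.54 and 124 RPM) and let-7i (3.04 and 189 RPM) passed 100 RPM in the later library, while let-7f (3.42 and 76.7 RPM) and let-7j (0.532 and 36.4 RPM) did not. let-7h was listed at 0 and was at 13.7 RPM, and let-7c-3p and let-7d-3p, which have 1 sequence and 1 value, were listed at 0 and were at 5.88 RPM.

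**Figure D2:**
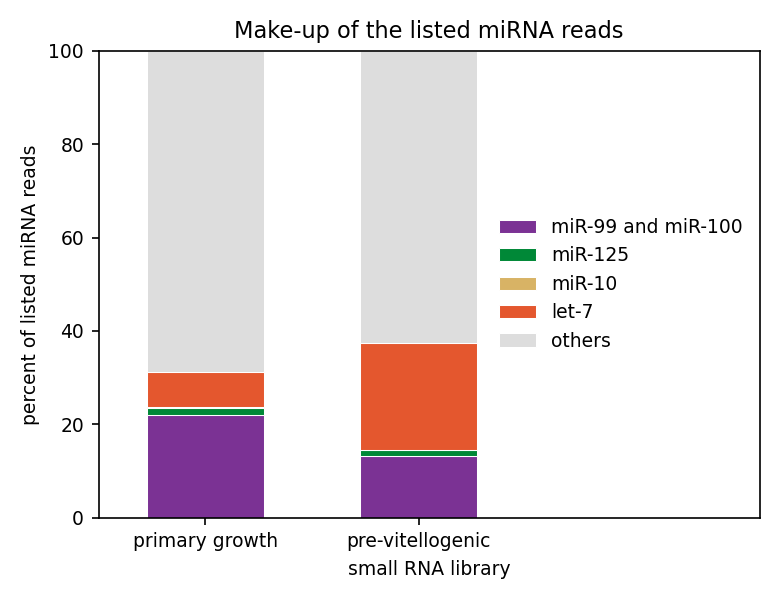
Percent of the listed miRNA reads held by each seed family and by let-7 in the 2 small RNA libraries, 1 library per bar. The miR-99 and miR-100 block is 22.1% at the primary growth stage and 13.3% at the later stage, while let-7 goes from 7.69% to 22.8%; miR-10 is too small to see.

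Nearly every abundant miRNA was higher in RPM in the later library, and the members did not stand out from them in direction. Those that reached 100 RPM in at least 1 library were set side by side on the scale of log2(RPM + 10) and called at a 2-fold difference. Of the 27 such miRNAs 25 were higher in pre-vitellogenic follicles (92.6%) and 0 lower (0%). All 4 members that passed the minimum were called higher, a share near that background, and so were all 7 such let-7 forms. A miRNA could pass through the later library alone, which favours a call of higher, also in the background. That held for miR-125b-5p, miR-125a and each of these let-7 forms except let-7a. Only miR-100-5p, miR-99 and let-7a among them reached 100 RPM in both libraries. The other 4 members (miR-125c-5p and the 3 miR-10 forms) were below the minimum. In size the members lay on the low side. Their log2 differences were 1.89 for miR-125b-5p, 1.89 for miR-125a, 1.90 for miR-100-5p and 2.57 for miR-99. These were places 5, 6, 7 and 11 from the smallest of the 27, whose median was 2.70. The first 3 were level on this scale only, with plain ratios of 4.29, 4.80 and 3.77 in the same order. The 7 let-7 forms ran from 2.59 for let-7c-5p to 4.26 for let-7a, each above all 4 members and 6 of them above the median. The added 10 RPM shrinks differences of low values, so let-7a was not first in plain ratio. The plain ratios were 62.0 for let-7i, 44.0 for let-7b, 24.6 for let-7e and 23.8 for let-7d-5p. They were 19.7 for let-7a, 18.9 for let-7g and 11.1 for let-7c-5p. The uncertain split of reads between let-7 forms that differ by 1 base also limits these ratios. The places in log2 difference are descriptions of 2 libraries. Among those of the 27 miRNAs outside both groups, the 3 nearest to the summed members (2.08) in log2 difference over these 2 libraries were miR-26b at 2.15 (17.9 and 114 RPM), miR-101a at 2.16 (35.8 and 194 RPM) and miR-146a at 2.44 (137 and 787 RPM).

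**Figure D3:**
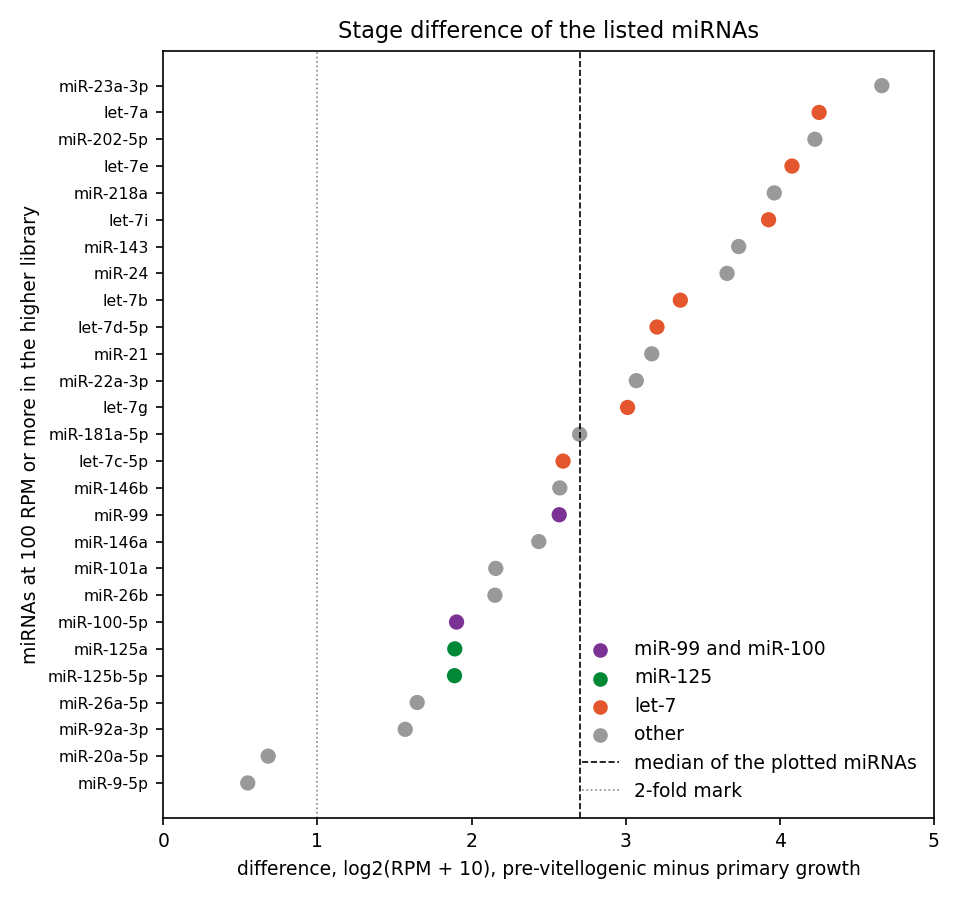
Difference in log2(RPM + 10), pre-vitellogenic minus primary growth, of the 27 miRNAs that reached 100 RPM in at least 1 library; the dashed line is their median of 2.70 and the dotted line the 2-fold mark. On this scale, which shrinks differences of low values, the miR-100-5p, miR-125a and miR-125b-5p points lie together near 1.90. The miR-99 point lies at 2.57 and the let-7 points between 2.59 and 4.26.

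The direction of the 4 abundant members depended on what the reads were counted against. With both libraries rescaled to the same number of listed miRNA reads, the 4 abundant members were lower in pre-vitellogenic follicles, with log2 differences of -0.87 for miR-100-5p, -0.62 for miR-125b-5p, -0.44 for miR-125a and -0.15 for miR-99. On that scale let-7a was at 1.5, let-7d-5p at 1.30 and let-7c-5p at 0.52, all still higher. Of the other members, miR-125c-5p, miR-10b-5p and miR-10c-5p went in share of listed reads from a listed 0 to 0.153%, 0.0999% and 0.0251%. The share of miR-10a-5p was 0.00992% (6 reads) and 0.00363% (22 reads). None of the 4 abundant members was then called in either direction, against 37.0% of the 27 miRNAs called higher and 14.8% called lower. After centring on the median difference of the 27 the count was again 0, against 25.9% higher and 14.8% lower. The sources used here do not say what the library totals count, so these data do not fix which scale reflects the amount of a miRNA per follicle.

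The ratio of 2 miRNAs within a library needs no choice of scale. The reads of miR-100-5p stood to those of miR-125b-5p as 18.5 (17.0 to 20.0) in primary growth and 16.2 (15.7 to 16.8) in pre-vitellogenic follicles, a change of 0.879 (0.805 to 0.960). Those of let-7a stood to those of miR-100-5p as 0.354 (0.341 to 0.367) and 1.85 (1.83 to 1.87), a change of 5.22 (5.03 to 5.42). These 2 members of different seed groups thus kept nearly the same ratio, while let-7a against miR-100-5p did not. Within 1 seed group the ratio of miR-100-5p to miR-99 changed by 0.605 (0.576 to 0.635), more than that of miR-100-5p to miR-125b-5p. The pair let-7d-5p and miR-125a showed a like change, from 0.227 (0.176 to 0.292) to 1.13 (1.06 to 1.19), or 4.96 (3.83 to 6.42). For the pair of miR-99 and let-7c-5p the change was smaller, from 16.4 (13.8 to 19.5) to 9.25 (8.84 to 9.67), so that let-7c-5p gained 1.77 times (1.48 to 2.13) on miR-99. Among these let-7 forms themselves, the reads of let-7c-5p stood to those of let-7d-5p as 1.78 (1.34 to 2.37) in primary growth and 0.828 (0.782 to 0.878) later. The split of reads between let-7c-5p and let-7a, let-7b or let-7d-5p is uncertain, as is that between let-7a and let-7f or let-7g. So is that between miR-100-5p and miR-99, and that between miR-125b-5p and miR-125c-5p. The intervals do not hold these uncertainties.

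The hairpins from which these miRNAs are cut carry positions in the deposited mRNA table, on Zv9, the build named in the submitters' processing notes. The table names 15 hairpins of the families and 18 of let-7, and 10 of the 15 have a locus of their own that overlaps no other transcript of the table. On chromosome 15, mir-100-1 (20399275 to 20399370) is followed after 147 bases by let-7a-2 (20399518 to 20399601) and after a further 9696 bases by mir-125b-1 (20409298 to 20409442). The same order recurs on chromosome 5 with mir-100-2 (31628637 to 31628711), let-7a-4 (31628942 to 31629034) and mir-125b-2 (31637252 to 31637337), over 8701 bases. On chromosome 10, mir-99-2 (39438831 to 39438910) lies 2143 bases from let-7c-2 (39436596 to 39436687), and mir-125b-3 (39415823 to 39415937) lies 20658 bases beyond. The hairpins mir-99-1, let-7c-1 and mir-125c share 1 locus of the table on chromosome 15 (29077471 to 29158809), together with the transcripts zgc:153372 (3.40 and 5.25 FPKM) and si:dkey-193b18.1 (listed at 0 and at 0.0602 FPKM), and their own positions within it are not given there. The miR-125a hairpins lie beside let-7d alone, mir-125a-1 (27137452 to 27137534) 16940 bases from let-7d-1 on chromosome 16 and mir-125a-2 (10066308 to 10066414) 13827 bases from let-7d-2 on chromosome 19. The strand of these hairpins is not used here.

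**Figure D4:**
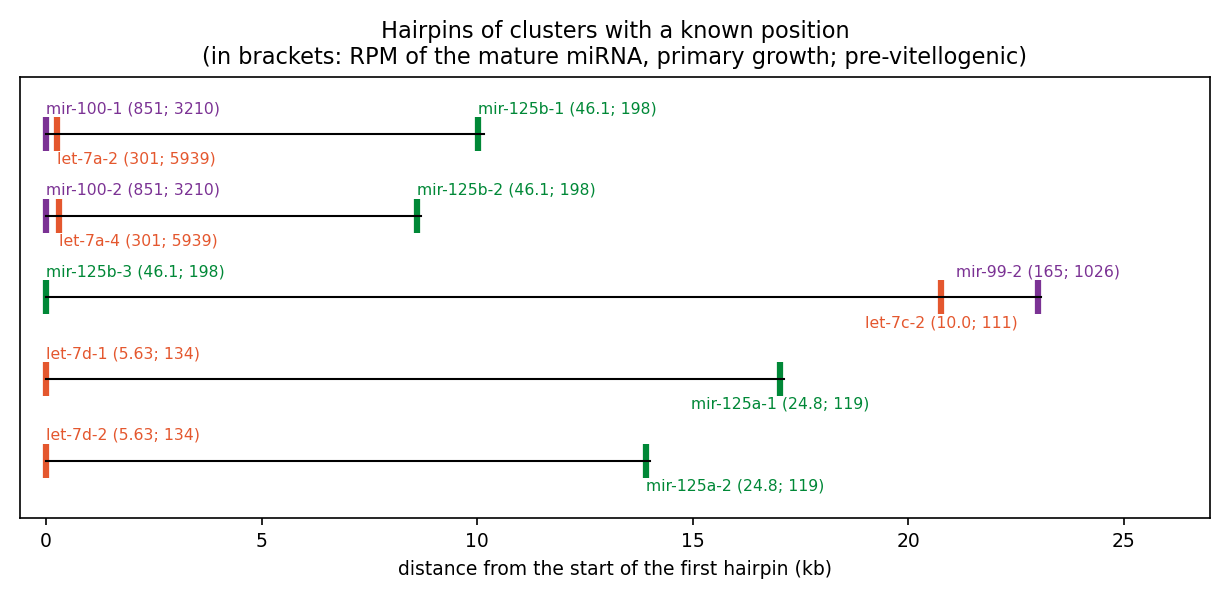
Hairpins of the 5 clusters whose positions the mRNA table gives, as distance in kb from the start of the first hairpin in order of position, with RPM of the mature miRNA in primary growth and pre-vitellogenic follicles in brackets. In both mir-100 clusters let-7a lies within 1 kb of mir-100, while mature let-7a was at 301 and 5939 RPM and miR-100-5p at 851 and 3210 RPM.

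Mature miRNAs with several hairpins cannot be assigned to one cluster. miR-100-5p has 2 hairpins in the table, miR-99 2, miR-125b-5p 3, miR-125a 2 and miR-125c 1, while let-7a has 6, of which 2 lie in these clusters. In the mRNA libraries all 15 hairpins of the families were listed at 0 FPKM at both stages, as were 17 of the 18 of let-7. The exception was let-7a-5, a hairpin of 124 bases that lies in no cluster with a member, listed at 0 and at 207 FPKM with deposited bounds of 0 to 685. These hairpin values thus give no measure of the primary transcripts of the clusters. Whether zgc:153372 or si:dkey-193b18.1 belongs to such a transcript was not tested.

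The miR-10 hairpins mir-10b-1, mir-10c and mir-10b-2 share loci with hox genes, which pattern the body axis. mir-10b-1 shares a locus of the table on chromosome 9 (1927848 to 1950351) with hoxd4a and hoxd3a, mir-10c one on chromosome 3 (23989275 to 24152182) with hoxb1a to hoxb6a, and mir-10b-2 one on chromosome 23 (36132969 to 36328653) with hoxc genes. The highest levels in the last 2 loci belonged to genes without a hox name. They were si:ch73-4e5.1 (14.2 and 25.6 FPKM) in that of mir-10c and si:dkey-81p22.11 (21.7 and 13.9 FPKM) in that of mir-10b-2. The hairpin mir-10a (chromosome 12, 28705900 to 28705998) has its own locus, as does mir-10d (chromosome 6, 10777971 to 10778088), for which no mature row was analysed here. The hox genes of these loci were low in both mRNA libraries. A list of 11 measured hox genes near hox position 4 and at the 3′ ends of the clusters, not all of them in these loci, was also compared. Of the 11, 2 reached 1 FPKM in the higher library, and 4 were listed at 0 in both libraries (hoxb5a, hoxc4a, hoxc5a and hoxa5a). hoxd4a was at 0.102 and 0.758 FPKM and hoxb4a at 0.106 FPKM and listed at 0. hoxb1b, at 8.03 and 7.65 FPKM, and hoxc3a, at 3.04 and 1.20 FPKM, were those above 1 FPKM, with log2 differences of -0.06 and -0.88 on the log2(FPKM + 1) scale. Of these hoxb1b lies in none of the loci shared with a miR-10 hairpin. Only shared loci were looked for, and distances from mir-10a or mir-10d to hox genes were not measured. In the locus of mir-10b-2, hoxc10a was at 2.41 and 0.984 FPKM. Neither hoxb1b nor hoxc3a was called at 2-fold, where 29.1% of the 14476 genes compared were called higher and 6.52% lower.

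Genes described as targets of these families were then compared, as a list drawn from general knowledge of vertebrates and not from sites in these transcripts. Of 39 such genes 35 were matched to the table and 22 reached 1 FPKM in the higher library. On the log2(FPKM + 1) scale 8 of the 22 were higher by 2-fold or more in the later library and 0 lower, with a median difference of 0.83, against 29.1% higher, 6.52% lower and a median of 0.50 over all 14476 genes. Of the 22, 16 reached 1 FPKM in both libraries. The others passed through the later library alone, which favours a call of higher. Among these igf1ra, erbb2, mib1 and nf1b were called higher and the rest were not called. The same minimum was applied to all 14476 genes. The genes called higher were mostly long. Of the 22 genes 11 stood in the longest of 10 equal bins of transcript length, median 5106 bases, and 7 of those 11 were called higher, where 61.9% of all genes of that bin were. Beyond that bin 1 of the 11 remaining was called, mib1. The part of transcript length in these differences was not tested further.

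Among the described targets of miR-99 and miR-100, 3 of 7 were called higher, where 29.1% of all 14476 genes were. The growth kinase gene mtor was at 2.2 and 6.65 FPKM (log2 difference 1.26). The IGF1 receptor genes were at 0.531 and 2.29 FPKM for igf1ra (1.1) and at 3.77 and 15.4 FPKM for igf1rb (1.79). The chromatin remodeller gene smarca5 was at 77.7 and 118 FPKM (0.60), short of 2-fold, and the FGF receptor gene fgfr3 was at 0.165 FPKM and listed at 0. Among those of miR-125, 1 of 9 was called, the EGF receptor family gene erbb2 (0.185 and 1.54 FPKM, 1.1). The RNA-binding protein gene lin28a, whose product blocks let-7 maturation in other vertebrates, was at 42.0 and 74.7 FPKM (0.82), and lin28b at 0.486 and 1.66 FPKM (0.84), both short of 2-fold on the log2(FPKM + 1) scale, although the FPKM values of lin28b themselves differ by 3.42 times. Among those of miR-10, 4 of 6 were called. They were the Ras inhibitor genes nf1a (2.33 and 13.8 FPKM, 2.15) and nf1b (0.332 and 2.05 FPKM, 1.20), the Notch pathway ligase gene mib1, named mib in the table (0.784 and 3.26 FPKM, 1.26) and the Rac activator gene tiam1a (1.36 and 4.08 FPKM, 1.1). All genes called in the lists except mib1 stood in the longest bin of transcript length, where 61.9% of all genes were called higher. The zebrafish hox targets hoxb1a (0.0794 and 0.0755 FPKM) and hoxb3a (0.117 and 0.213 FPKM) stayed far under 1 FPKM. For 32 transcripts of the listed genes at 1 FPKM or more the authors' deposited bounds of both stages overlapped in every case, as they did for all but 8 of 21781 transcripts of the table.

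**Figure D5:**
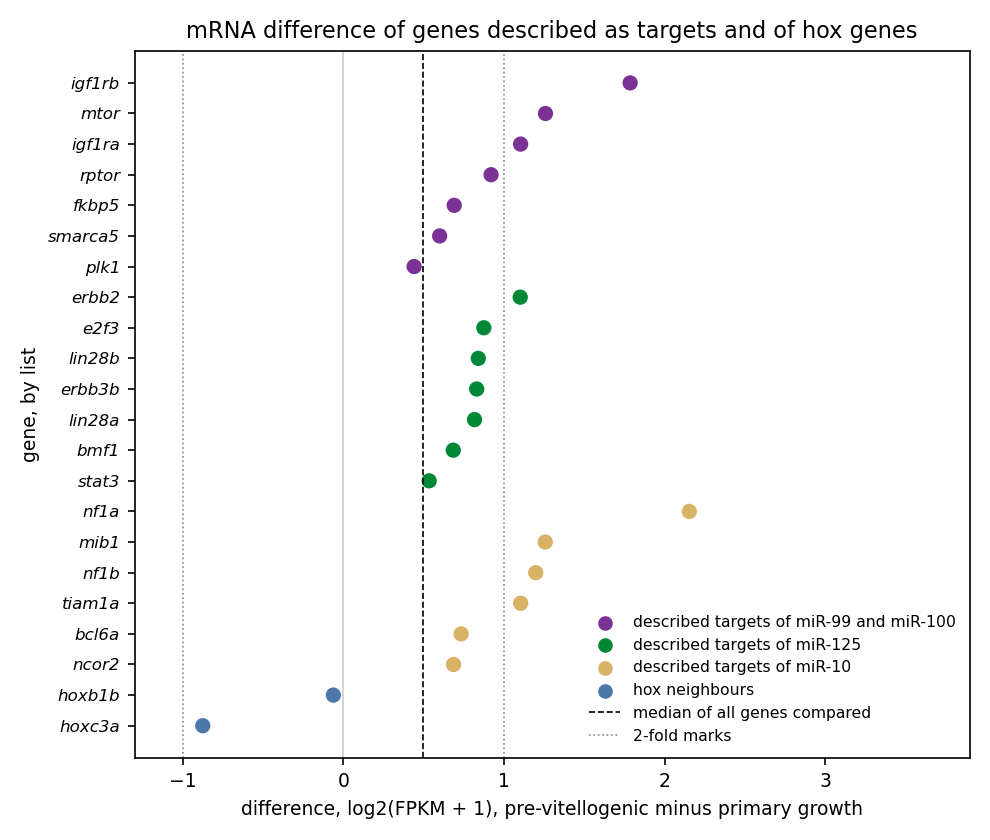
Difference in log2(FPKM + 1), pre-vitellogenic minus primary growth, of 20 of the 22 described target genes and of 2 hox genes that reached 1 FPKM in at least 1 library, coloured by list, 1 library per stage. The dashed line is the median of 0.50 over all 14476 genes and the dotted lines are the 2-fold marks, past which 8 target genes lie, all of them on the higher side.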

How the data were processed

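Per the labels' protocols, follicles were sorted by size and morphology and sequenced as single-end small RNA and paired-end mRNA libraries. The header of the small RNA table says RPKM. Its values above 0 were all whole multiples of 1 step (0.0761 for primary growth and 0.0525 for pre-vitellogenic follicles, tolerance 0.01 steps) at any miRNA length, so what the authors deposited was taken as RPM, and a value divided by its step as reads. The sources used here do not give how small RNA reads were mapped and counted. The authors deposited FPKM per transcript with bounds. TopHat2 2.0.11, Cufflinks 2.2.1 and Zv9 stand in the submitters' processing notes without role or order. FPKM was summed per gene name, or gene ID where there was none (29454 names; 4 with failed estimates left out).

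With 1 library per stage no test was run. Calls were at 2-fold on log2(value + pseudocount), with 10 RPM and a minimum of 100 RPM, or 1 FPKM for both, which understates differences of low values. The 95% intervals are Wilson for shares, exact conditional (Clopper-Pearson) for ratios between libraries and log-normal for other ratios, and hold counting error alone. Members and lists were chosen with earlier results of these data known. Named were all members and let-7 rows, the 3 nearest and 3 most abundant miRNAs, markers, chosen target genes and list genes past 2-fold. Part of the miR-125 target list is counted in its totals but not reported by gene here. Genes named after their values were seen were miR-7a, the miRNAs of other cell types, alas2, lin28b, hoxb1b, hoxc3a, hoxc10a, the hox genes at 0 and the transcripts without a hox name beside mir-99-1, mir-10c and mir-10b-2. The recovery of read numbers and the intervals of ratios between libraries were tested on simulated data, and the other steps were not. Python 3.11.15, numpy 2.4.6, pandas 2.3.3, SciPy 1.17.1 and matplotlib 3.10.9 were used.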

Additional observations from a re-analysis of the deposited data

How the results depend on the processing

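No paired analysis was possible because each stage has 1 library of each kind, and for the same reason no replicate could be left out. Scaling decided the direction of the miR-99, miR-100 and miR-125 sums. The summed log2 difference of miR-99 and miR-100 (2.05 as deposited) was -0.73 per listed miRNA read, -0.65 without the most abundant of these (miR-22a-3p), -0.65 after centring on the median difference and, added after the data were seen, -0.47 per listed read without let-7. That of miR-125 (2.21) was -0.40, -0.33, -0.49 and -0.16 in the same order, and 2.35 with a pseudocount of 1 RPM. That of miR-10 (2.28) was 4.85 with that pseudocount, since 2 of its forms were listed at 0, 1.19 per listed read, 1.22 without miR-22a-3p and -0.42 after centring. The centring value rests on a median of miRNAs at 100 RPM or more, which no miR-10 form reached, and on the 10 RPM pseudocount. It therefore does not show miR-10 as lower. That of let-7 (4.32) stayed positive, at 1.56, 1.63 and 1.62 under the first 3 scalings. The 4 members called higher became 0 under each of these 3 scalings. They became 6 of 6 compared at a minimum of 10 RPM and 6 of 8 with none. The added calls, miR-125c-5p and miR-10b-5p, were listed at 0 in primary growth, so both rest on the later library alone. The share of all listed miRNAs called at these minimums was not computed. The members' share in primary growth and pre-vitellogenic follicles was 29.1% and 19.0% without miR-22a-3p, 25.6% and 18.9% without let-7 (added after the data were seen), and 0.109% and 0.464% of the library total, so only against the library total was it larger in the later library; counting rows of identical sequence once gave 23.7% and 14.6%. The 8 of 22 described target genes called higher became 3 of 14 at a minimum of 5 FPKM. They were 2 of 22 after centring, and 11 of 22 both with a pseudocount of 0.1 FPKM and at the same FPKM total. Of the hox genes 0 were called higher under any alternative. With a pseudocount of 0.1 FPKM and after centring 1 of 2 was called lower. The shares of all genes called under these alternatives were not computed. Among the members counting error was widest for miR-10a-5p, at 6 reads in primary growth, the lowest value listed above 0. Why miR-10b-5p and miR-10c-5p were listed at 0 there was not tested.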
